A study of Mus musculus with 3 samples.

Results

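Cluster 10 of a single-nucleus ATAC-seq series of mouse embryos is described here across genes and distal regions. Its members are the nuclei that carry cluster number 10 in the cell table deposited by the authors, 75 of 1879 nuclei. The E12.5 library gave 2 of them, the E13.5 library 49 and the E15.5 library 24, where E gives the days of embryonic development. ATAC-seq marks open chromatin by letting the transposase Tn5 cut and tag accessible DNA, and each nucleus receives its own barcode.

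All nuclei came from wild-type C57BL/6JRj embryos, with 1 library per stage, made as a reference for spatial maps of littermates. A few thick frozen sections per stage, cut at the levels of the spatial maps, were dissociated, and stained nuclei were sorted and run on a droplet platform. Cluster 10 therefore samples the muscle in those sections and not the whole embryo, and stage, embryo and library cannot be told apart. How many embryos went into a library, and from which body region a nucleus came, the sources used here do not say. The fragments that are counted below also served to make the deposited clusters, so a higher value in cluster 10 than in another cluster is a description and no test was run on it. With 1 library per stage the differences between stages have no replicate check either, and intervals in brackets (95%, exact) cover counting error only.

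The share of nuclei in cluster 10 was 5.05% (3.76 to 6.62) in the E13.5 library, 3.17% (2.04 to 4.69) in the E15.5 library and 1.31% (0.159 to 4.64) in the E12.5 library. These nuclei were deep: the median was 92857 unique fragments at E13.5 (range 42062 to 204290) and 84211.5 at E15.5 (46520 to 147364). Mesenchyme cluster 1, the class compared most closely below, had medians of 64094 fragments over 125 nuclei and 48173.5 over 120. Fragments at transcription start sites (TSSs) made up 9.0% and 9.96% of cluster 10 fragments in the 2 later libraries, below the 12.1% and 13.8% of cluster 1. TSS enrichment was 10.2 and 14.3 in cluster 10 against 17.1 and 23.1 in cluster 1. No cluster 10 barcode occurred in another library or shared many identical fragments with another barcode. Doublets, 2 nuclei under 1 barcode, were not removed.

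Skeletal muscle forms when progenitors marked by the paired-box factors Pax3 and Pax7 switch on the myogenic factors Myf5 and Myod1, leave the cell cycle, and differentiate under Myog and the Mef2 factors. These basic helix-loop-helix factors bind short sites called E-boxes, and the core CAGCTG is a preferred site of Myod1 and Myog. Differentiating myoblasts fuse into fibres, assemble the sarcomere, the repeating unit of actin, myosin and titin that contracts, and build a neuromuscular junction under the nerve ending. Open chromatin at a gene shows that its DNA is accessible, which is not the same as its transcription.

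The sequences below are shown because they carried the muscle pattern or the factor sites discussed further on. The first 3 are stretches of distal regions near Myog and Myod1 that were open in cluster 10, each taken around the median midpoint of the cluster 10 fragments at E13.5, and the others are promoters of markers, from 250 bases before to 50 after the gene start, credited to RefSeq. All are mouse GRCm38 (mm10), 5′ to 3′, on the plus strand for the distal regions and on the strand of the gene for the promoters. The Mybph exon region is named for an exon that overlaps the longer region it was taken from. Whether the printed stretch lies in the exon was not checked. Capitals mark CAGCTG, or in the Ttn promoter a match to the strict form of the Mef2 site that is given further on.
Myog upstream region, chr1:134245252-134245551: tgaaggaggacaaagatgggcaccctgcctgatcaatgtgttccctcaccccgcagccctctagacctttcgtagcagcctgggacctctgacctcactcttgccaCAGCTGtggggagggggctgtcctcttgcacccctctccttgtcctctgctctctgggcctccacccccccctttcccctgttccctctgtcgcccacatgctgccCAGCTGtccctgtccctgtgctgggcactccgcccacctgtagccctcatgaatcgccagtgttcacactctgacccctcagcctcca
Mybph exon region, chr1:134195960-134196259: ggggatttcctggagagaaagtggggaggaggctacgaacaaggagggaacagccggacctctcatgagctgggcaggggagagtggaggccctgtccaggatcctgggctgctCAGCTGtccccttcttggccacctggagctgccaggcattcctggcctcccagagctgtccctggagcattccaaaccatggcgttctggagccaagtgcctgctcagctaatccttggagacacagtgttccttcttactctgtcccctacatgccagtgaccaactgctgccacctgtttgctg
Myod1 upstream region, chr7:46353059-46353358: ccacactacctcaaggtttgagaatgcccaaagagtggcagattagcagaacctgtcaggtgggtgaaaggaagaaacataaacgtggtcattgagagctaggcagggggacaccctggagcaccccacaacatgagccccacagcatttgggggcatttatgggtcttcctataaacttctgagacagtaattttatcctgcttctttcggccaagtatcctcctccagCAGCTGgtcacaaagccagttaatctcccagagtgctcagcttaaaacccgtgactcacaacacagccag
Myog promoter, chr1:134289754-134290053: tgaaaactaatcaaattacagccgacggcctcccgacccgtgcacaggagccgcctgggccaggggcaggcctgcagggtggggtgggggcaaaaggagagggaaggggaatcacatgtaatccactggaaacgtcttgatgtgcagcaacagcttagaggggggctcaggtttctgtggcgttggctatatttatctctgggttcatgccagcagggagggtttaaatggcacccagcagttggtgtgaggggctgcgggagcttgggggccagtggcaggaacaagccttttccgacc
Des promoter, chr1:75360042-75360341: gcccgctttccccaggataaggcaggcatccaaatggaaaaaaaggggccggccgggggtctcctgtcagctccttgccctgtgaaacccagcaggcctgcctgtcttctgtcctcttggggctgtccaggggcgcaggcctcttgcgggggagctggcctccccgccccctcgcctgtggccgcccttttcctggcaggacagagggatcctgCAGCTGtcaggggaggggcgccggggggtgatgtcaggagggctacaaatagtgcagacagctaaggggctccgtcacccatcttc
Ttn promoter, chr2:76982498-76982797: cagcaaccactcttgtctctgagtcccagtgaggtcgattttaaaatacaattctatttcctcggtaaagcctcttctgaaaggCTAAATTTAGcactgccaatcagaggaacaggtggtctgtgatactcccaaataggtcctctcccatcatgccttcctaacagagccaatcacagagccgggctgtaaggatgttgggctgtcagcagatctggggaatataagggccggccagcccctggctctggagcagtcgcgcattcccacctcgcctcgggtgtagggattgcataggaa

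The cell table gives cluster 10 a number and no name. Levels of 6 muscle markers, chosen with earlier results of these data known, are described here and are no independent check of the name. Each gene was given a window, its body plus the 2 kb upstream, and the unique fragments in it were summed over the nuclei of a cluster and scaled to 1000000 gene fragments (CPM). The values were compared with those of the pooled clusters 0, 1, 3, 5, 6, 7, 8, 9 and 11 of the same library (the other clusters). Clusters 2 and 4 were left out for their low depth. All 6 markers had their highest level in cluster 10 in both later libraries.

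Myod1 (chromosome 7, 46376474 to 46379099, plus strand), the factor that commits cells to muscle, had 121 fragments at E13.5 and 56 at E15.5. Its level was 39.99 and 45.1 CPM, which was 6.74-fold (5.35 to 8.46) and 7.36-fold (5.29 to 10.1) that of the other clusters. Myog (chromosome 1, 134289989 to 134292548, plus strand), the factor of terminal differentiation, had 170 and 74 fragments and levels of 56.2 and 59.7 CPM. That was 7.16-fold (5.88 to 8.69) and 8.09-fold (6.05 to 10.7) the other clusters. The 2 factors stood at similar multiples of the background in both libraries.

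Myf5 (chromosome 10, 107482908 to 107486134, minus strand), the earliest of the myogenic factors, had 63 and 44 fragments, 20.8 and 35.5 CPM, and ratios of 6.16 (4.47 to 8.41) and 8.84 (6.01 to 12.8). Pax7 (chromosome 4, 139737062 to 139833528, minus strand), the factor of muscle progenitors and satellite cells, had 1019 and 377 fragments, 337 and 304 CPM, and ratios of 2.55 (2.38 to 2.73) and 2.49 (2.23 to 2.77). Pax7 is also used in the embryonic nervous system, and the next levels were 217 CPM in the neuron-rich cluster 6 at E13.5 and 248 CPM in cluster 9 at E15.5. The intermediate filament gene Des (chromosome 1, 75360329 to 75368579, plus strand) had 184 and 65 fragments, 60.8 and 52.4 CPM, and ratios of 3.18 (2.69 to 3.75) and 3.21 (2.43 to 4.19). Ttn (chromosome 2, 76703980 to 76982547, minus strand), which encodes the giant spring protein titin, had 668 and 545 fragments, 221 and 439 CPM, and ratios of 2.30 (2.11 to 2.49) and 4.28 (3.89 to 4.70). The E13.5 and E15.5 intervals of the ratio did not overlap for Ttn, and did for the other 5 markers.

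Against cluster 1 alone the ratios at E13.5 and E15.5 were 6.06 and 19.1 for Myod1, 6.24 and 8.73 for Myog, and 2.97 and 13.49 for Myf5. They were 2.65 and 3.41 for Pax7, 2.39 and 1.97 for Des, and 2.50 and 5.26 for Ttn. The E15.5 ratios of Myod1 and Myf5 rest on 9 and 10 fragments in cluster 1. Over the promoter alone, from 1000 bp upstream to 100 bp downstream of the gene's TSSs, the contrast with the other clusters was wider. It was 13.6-fold (9.92 to 18.7) and 23.3-fold (14.8 to 37.0) for Myog, 11.4-fold (7.54 to 17.4) and 15.2-fold (8.61 to 26.5) for Myod1, and 10.2-fold (6.29 to 16.4) and 11.9-fold (6.26 to 22.0) for Myf5.

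**Figure D1:**
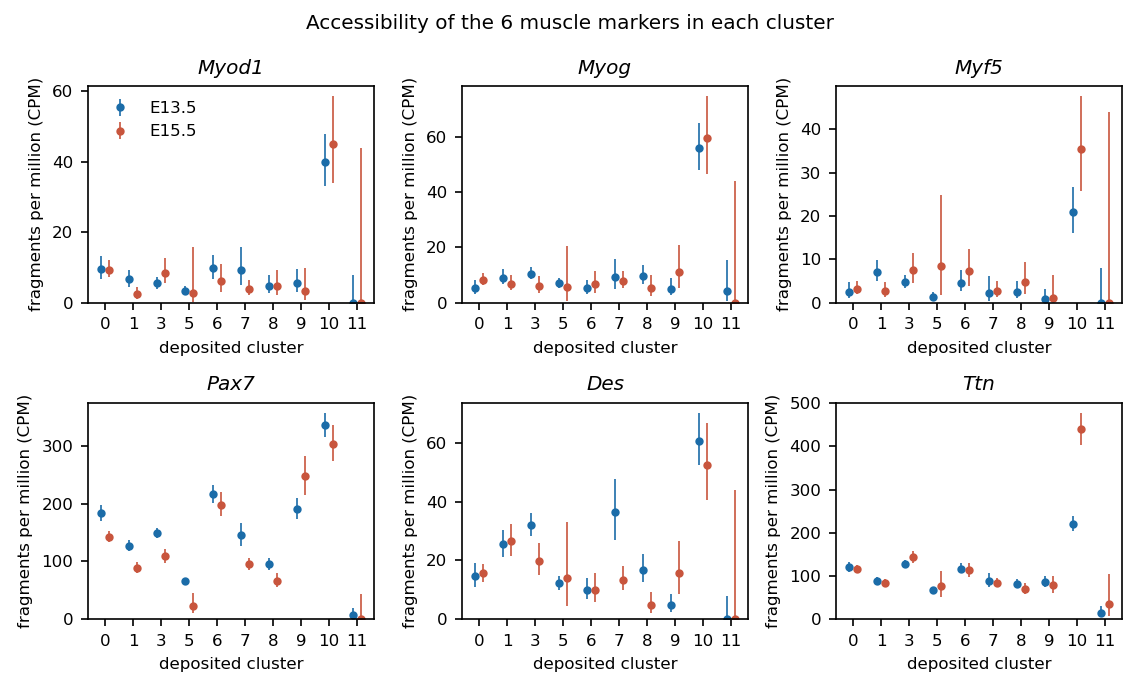
Accessibility (CPM, linear axis from 0) of the 6 muscle markers in each deposited cluster that held at least 5 nuclei of a library, at E13.5 (blue) and E15.5 (red). Points are sums over nuclei and bars are exact 95% Poisson intervals, for counting error only. Cluster 10 is the highest in each of the 6 panels, and its Ttn level is 221 CPM at E13.5 and 439 CPM at E15.5.

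The markers were spread over the nuclei and not held by a few of them. A fragment in Myod1 was found in 39 of 49 cluster 10 nuclei at E13.5 and in 20 of 24 at E15.5, against 16 of 125 and 5 of 120 in cluster 1 and 37 of 163 and 43 of 222 in the neuron-rich clusters 0 and 6. Myog was found in 38 and 19 cluster 10 nuclei, against 28 and 21 in cluster 1. Neurons should lack both factors, and their shares give the background for these 2 genes, though not for Pax7. By the deposited tally their median depth was 67853 and 61382.5 fragments, below that of cluster 10, so the shares were also taken after thinning every nucleus to 10000 fragments. Any of the 6 markers was then hit in 95.9% (86.0 to 99.5) of cluster 10 nuclei at E13.5 and 91.7% (73.0 to 99.0) at E15.5, in 63.7% and 60.7% of cluster 1, and in 78.5% and 77.7% of neurons. Without thinning, the shares were 100% and 100%, 97.6% and 88.3%, and 98.8% and 94.6%.

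Markers were also counted per nucleus, without thinning, so the greater depth of cluster 10 raises its counts. At E13.5, 18 nuclei had a fragment in 5 of the markers and 13 had one in all 6, and none had fewer than 2. At E15.5, 9 nuclei had 5 and 10 had all 6. In cluster 1, 3 nuclei had 5 and 1 had 6 at E13.5, and none of 120 had 5 or more at E15.5. The summed marker level of the median nucleus was 642 CPM (range 133 to 1957) and 888 CPM (371 to 1600) in cluster 10, against 239 and 157 CPM in cluster 1 and 281 and 250 CPM in the neurons.

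The 2 nuclei at E12.5 held 115962 and 45345 fragments and are given as counts. All 16 Myod1 fragments lay in the deeper nucleus, Pax7 had 12 in it and 8 in the other, and both together had 3 fragments in Ttn, 1 each in Myog and Myf5, and none in Des. The deeper nucleus also held 20 fragments in the epithelial gene Epcam, 46 in the epithelial factor gene Trp63 and 42 in the cartilage collagen gene Col2a1. Whether it is a doublet was not tested.

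A gene was called higher in cluster 10 when its CPM was at least 1.5 times that of the comparison in both E13.5 and E15.5, and lower when at most 1/1.5 in both, among genes with at least 20 fragments. Of 20804 genes, 855 (4.11%) were called higher than in the other clusters and 1591 (7.65%) lower, and the median ratio of all genes was 0.920 at E13.5 and 0.909 at E15.5. Under edgeR's TMM scaling these counts were 1110 and 1257, so the split of higher against lower calls depends on the scaling. The level in cluster 10 was the highest of all clusters in both libraries for 682 genes (3.28%). Against cluster 1, 1222 of 19147 genes (6.38%) were higher and 1228 (6.41%) lower, and under TMM scaling 1428 and 1003. Fragments of a nucleus also lie in runs, since 10.1% of them at E13.5 and 8.99% at E15.5 ended where another of the same nucleus began, so the printed intervals are too narrow. For that reason, for named genes of the muscle lists, the value over the other clusters or between stages without the nucleus richest in the gene is given where leaving it out ends the call.

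Among 17 myogenic factors, 12 were called higher than in the other clusters and none lower, with median ratios of 2.24 at E13.5 and 2.08 at E15.5. Against cluster 1, 8 were higher and none lower. Beyond Myod1, Myog and Myf5, the musculin gene Msc, a repressor of the same protein family, stood at 3.80-fold (2.77 to 5.14) and 4.18-fold (2.92 to 5.85) the other clusters. Pitx3, a homeobox gene of differentiating muscle, had 388 and 163 fragments and ratios of 3.12 (2.78 to 3.49) and 3.13 (2.63 to 3.7). Vgll2, a partner of TEAD factors in muscle, was at 2.75 and 3.11.

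Six4 and Eya4, which act upstream of the myogenic factors, passed over the other clusters and did not pass over cluster 1. Six4 was at 2.29 and 2.08 over the other clusters and at 1.43 and 1.49 over cluster 1. Eya4 was at 2.22 and 1.55, and at 1.43 and 1.23. Without its richest nucleus Eya4 was at 2.09 and 1.45 over the other clusters and no longer passed. The Mef2 genes, partners of the myogenic factors that many tissues use, were near the background: Mef2a was at 1.03 and 1.25 over the other clusters, and Mef2c at 0.842 and 1.11. Mef2d, at 1.48 and 1.52, narrowly missed the rule over the other clusters and passed it over cluster 1 (1.62 and 1.92), where it was at 1.44 and 1.70 without its richest nucleus and turned to 0.78 in 1 library over its promoter alone. Myf6, next to Myf5, was called higher with 34 and 12 fragments, at 3.35 and 2.66.

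Of 16 muscle progenitor genes, 9 were called higher than in the other clusters and none lower. Cdh15, which encodes the adhesion protein M-cadherin, had 442 and 192 fragments, levels of 146 and 155 CPM, and ratios of 4.23 (3.79 to 4.72) and 4.84 (4.10 to 5.68). Heyl, a target of Notch signalling that keeps progenitors undifferentiated, was at 4.18 (3.68 to 4.74) and 3.09 (2.56 to 3.71). Fgfr4, a growth factor receptor of myoblasts, was at 3.88 (3.32 to 4.51) and 3.41 (2.72 to 4.24). Progenitor and differentiation genes were thus open in the same cluster. Met, the receptor that guides migrating limb progenitors, was at 2.24 and 2.27, and its partner in migration Lbx1 was at 2.0 and 1.70. Pax3, the earlier paired-box gene, did not pass, at 1.13 and 1.08, and 4 clusters had higher levels in both libraries. Meox2, a factor of limb muscle precursors and mesenchyme, was lower than in cluster 1 (0.353 and 0.416).

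The lists of regional factors did not place the cluster in the head or in the trunk. Of 6 head muscle factors, 3 were higher than in the other clusters, among them Tbx1 (1.54 and 1.84) and Msc, while Isl1 (1.65 and 0.880), Tcf21 (1.98 and 1.04) and Lhx2 (0.726 and 0.676) were not. Tbx1 fell to 1.42 and 1.39, and out of the rule, without its richest nucleus. Of 5 trunk and limb factors, Lbx1 and Met were higher, and Pax3, Meox1 and Meox2 were not.

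Of 43 sarcomere genes, 26 were called higher than in the other clusters and none lower, with median ratios of 1.93 and 2.46, and cluster 10 was highest in both libraries for 25. Against cluster 1, 29 were higher and 1 lower. Actc1, the actin of heart and of embryonic skeletal muscle, had 170 and 89 fragments. Its level was 56.2 and 71.7 CPM against 5.27 and 4.84 CPM in the other clusters, a ratio of 10.7 (8.62 to 13.2) and 14.8 (11.05 to 19.8). It kept 9.61 and 13.2 without the richest nucleus. Acta1, the adult skeletal actin, had 92 and 74 fragments and ratios of 3.36 (2.64 to 4.25) and 4.39 (3.35 to 5.68). Against cluster 1 Acta1 stood at 7.24 and 20.6, the latter on 11 cluster 1 fragments.

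Troponins switch the thin filament on with calcium, and 7 of their genes passed: Tnnt1 (3.32 and 4.87), Tnnt2 (2.76 and 3.32), Tnnt3 (1.63 and 2.49), Tnni1 (2.29 and 2.80), Tnni2 (1.92 and 2.97), Tnnc1 (1.85 and 1.94) and Tnnc2 (3.99 and 3.32). Tnnt3 was at 1.3 and 2.08 without its richest nucleus and then failed the rule at E13.5. Embryonic myosin Myh3 was at 2.68 and 3.52 and neonatal myosin Myh8 at 2.64 and 2.24. The fast adult myosins Myh1, Myh2 and Myh4 also passed, at 2.21 and 2.11, 2.27 and 2.26, and 1.84 and 1.54. Myh4 lost its call without its richest nucleus, at 1.43 and 1.23, and over its promoter alone it had no fragment in 1 library. The myosins other than Myh7 lie side by side on chromosome 11 and are alike in sequence, so values of single members are less certain. Mybph, a myosin-binding protein gene within 100 kb of Myog, was at 4.48 (3.83 to 5.23) and 5.09 (4.02 to 6.40). Myl3, a light chain of slow muscle and heart, was lower than in cluster 1 (0.558 and 0.506). Over its promoter alone, scaled by promoter fragments and not by gene fragments, it was not lower, with a ratio of 1.32 in 1 library. What part the scaling had in that change was not tested. The fast actinin gene Actn3 was near the background (1.15 and 1.10).

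Of 18 genes of excitation-contraction coupling, the step that turns a membrane signal into calcium release, 7 were higher than in the other clusters and none lower. Atp2a1, the calcium pump of fast fibres, had 180 and 134 fragments and ratios of 2.25 (1.91 to 2.64) and 5.96 (4.86 to 7.27). Sln, which encodes the pump regulator sarcolipin, was at 4.55 and 4.03 on 34 and 18 fragments. The junctophilins Jph1 (2.68 and 1.96) and Jph2 (2.49 and 3.23), which tether the membranes at which calcium is released, also passed. The release channel Ryr1 passed at E15.5 and not at E13.5 (1.19 and 2.56), and Atp2a2, the pump of many tissues, was at 1.04 and 1.19.

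Of 11 neuromuscular junction genes, 7 were higher than in the other clusters. Chrnd, the delta subunit of the acetylcholine receptor, had 148 and 66 fragments and ratios of 4.62 (3.79 to 5.6) and 7.64 (5.63 to 10.3). Chrng, the gamma subunit of the fetal receptor, was at 4.24 (3.6 to 4.98) and 4.77 (3.62 to 6.21), while Chrne, the subunit that replaces it in the adult, was at 0.939 and 1.42. Dok7 (2.60 and 3.20), Musk (2.11 and 1.82) and Rapsn (2.06 and 5.66), which build the receptor clusters, passed as well. Ache, which encodes the enzyme that clears the transmitter and is also used by neurons, was at 0.759 and 1.01.

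Of 18 genes of fusion and the muscle membrane, 8 were higher. The fusion proteins myomaker (Mymk, 2.90 and 5.94) and myomixer (Mymx, 3.56 and 4.70) and caveolin 3 (Cav3, 3.83 and 5.74) led them together with Cdh15. Widely used members were near the background, among them Utrn (0.863 and 0.946), Dag1 (1.16 and 1.07) and Ncam1 (1.13 and 1.05). Of 13 genes of muscle energy metabolism, 2 were higher, the creatine kinase Ckm (1.60 and 2.06) and the glycolytic enzyme Pgam2 (2.46 and 3.67). Ckm was at 1.44 and 1.82 without its richest nucleus and then failed at E13.5. Against cluster 1, 3 were higher and Phka1 and Phkg1 were lower. Against the other clusters the metabolic list had the lowest share of members called.

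Of 15 genes of muscle growth signalling, 9 were higher than in the other clusters. The Notch ligand Dll1, which differentiating cells present to progenitors, was at 2.48 and 2.66, and the Notch receptor Notch3 at 1.70 and 1.73, though at 1.63 and 1.38 without its richest nucleus. Mstn, the secreted brake on muscle growth, was at 2.87 and 3.22 on 45 and 16 fragments. Igf2 was at 2.06 and 2.66. Fst, the antagonist of Mstn, was at 1.34 and 0.636.

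**Figure D2:**
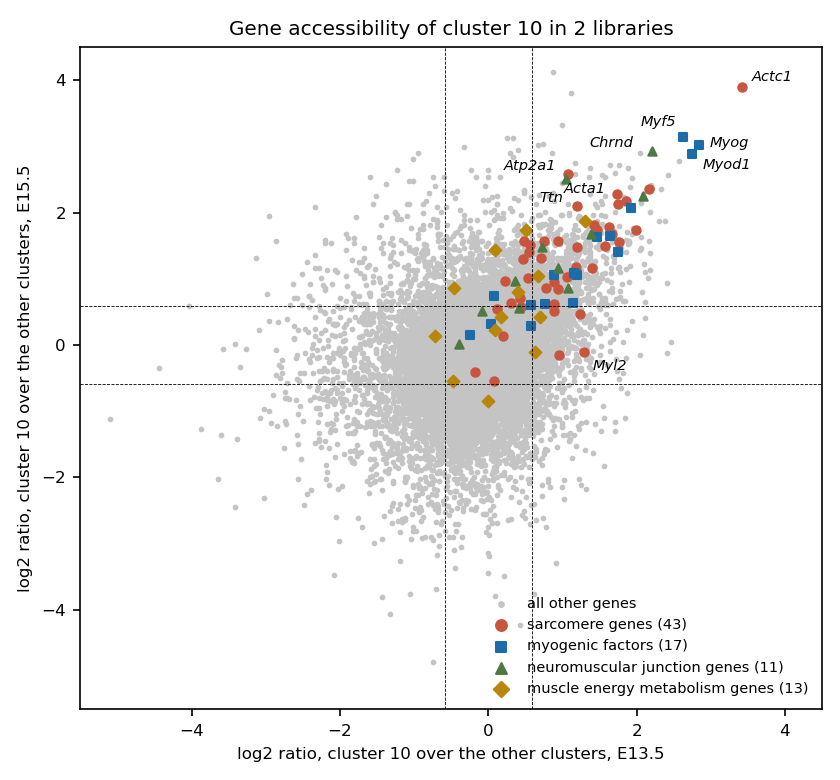
Log2 ratio of CPM in cluster 10 over the pooled other clusters, E13.5 on the horizontal and E15.5 on the vertical axis; each point is a gene, with 4 lists in colour and dashed lines at the 1.5-fold rule. Genes with no fragment in cluster 10 or outside the axis limits are not drawn. Of the coloured genes Actc1 lies farthest to the upper right, at ratios of 10.7 and 14.8, and Myl2 passes 1.5-fold at E13.5 alone, which it did not without its richest nucleus, at 1.48.

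Among genes on no list, the ratios that were highest in the lower of the 2 libraries belonged to Hspb2 (5.93 and 6.85), Smlr1 (5.39 and 5.91), Hfe2 (5.01 and 5.14), Cryab (4.63 and 5.2), 1700123L14Rik (4.57 and 5.32), Olfr986 (4.41 and 5.06), Fitm1 (4.24 and 4.75), Lrrc30 (4.17 and 4.43), Gm10097 (4.12 and 7.45) and Ms4a10 (3.79 and 4.23). Hspb2 and Cryab encode small heat shock proteins of muscle and are neighbours on chromosome 9 whose windows share fragments. Hfe2 encodes hemojuvelin, an iron regulator of muscle and liver. The 1591 genes called lower included 102 without any cluster 10 fragment, and no fold is given for these. These tie for the lowest ratio, so no lowest genes are named. Against cluster 1, Rgr (12.4 and 5.45, on 15 and 18 cluster 1 fragments) and Krtap16-1 (6.61 and 17.2) were among the highest, with Spint5, Olfr65 and Gm36245, for which cluster 1 had no fragment at E15.5. All 14 Spint5 fragments at E15.5 lay in 1 nucleus. Among the genes called lower than in cluster 1, Rnase10 had 5 and 2 fragments in cluster 10 against 77 and 79, and Esp6 had none against 15 and 6.

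Most markers of other cell types were not called higher than in the other clusters. All 9 mesenchyme markers, among them Prrx1 (0.379 and 0.592), Col1a1 (0.474 and 0.174) and Twist1 (0.274 and 0.130), were lower than in cluster 1. Their summed level was 309 and 311 CPM in cluster 10, against 758 and 896 CPM in cluster 1 and 377 and 431 CPM in the other clusters. None of the cartilage, brown fat, neuron, erythroid, endothelium, white blood cell, epithelium or liver markers was called higher than in the other clusters. The exceptions were the tendon factor Scx (2.49 and 2.97), the smooth muscle genes Acta2 (2.97 and 4.75) and Tagln (2.09 and 1.55) and the heart gene Nppa (1.59 and 1.94). So were the neural progenitor marker Nes (1.80 and 2.46), an intermediate filament gene, and the Schwann cell and crest marker Erbb3 (2.87 and 3.47), a receptor gene. Acta2 and Nes are also used by developing myoblasts. Of 7 heart muscle markers, 1 was called higher and 5 were above 1 in both libraries. Their median ratios were 1.19 and 1.12, against 0.920 and 0.909 for all genes. The heart factors Nkx2-5 (1.40 and 1.17), Gata4 (1.05 and 1.64) and Tbx5 (0.730 and 0.508) did not pass. Trp63, at 2.17 and 1.28, held 523 fragments at E13.5, 81 of them in 1 nucleus. Epcam had 63 fragments in 18 nuclei at E13.5 and 1 at E15.5. What part nuclei of other types have in these values was not tested.

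The 2 later stages were then set side by side within cluster 10. A gene was called when its ratio, E15.5 over E13.5, was at least 1.5 or at most 1/1.5 and its counting interval left out 1. Of 17244 genes, 1350 (7.83%) were called higher at E15.5 and 1806 (10.5%) lower, so calls in either direction were common in the background, and the median of all genes was 0.976. Of 43 sarcomere genes 7 were higher and 3 lower, of 18 coupling genes 3 were higher and none lower, of 18 fusion and membrane genes 7 were higher and none lower, and of 13 metabolic genes 4 were higher and none lower. Of 17 myogenic factors 2 were higher, of 16 progenitor genes 3 and of 11 junction genes 2, with none lower. Of 15 signalling genes none was higher and 1 lower. The median ratios of the sarcomere, coupling, fusion and metabolic lists were 1.09, 1.14, 1.31 and 1.11 in cluster 10, against 0.963, 0.888, 1.02 and 0.871 in cluster 1. Those of the myogenic, progenitor, junction and signalling lists were 1.13, 1.04, 1.16 and 0.949, against 0.847, 0.936, 0.835 and 1.05.

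Ttn had 668 fragments in 45 of 49 nuclei at E13.5 and 545 in all 24 nuclei at E15.5, a ratio of 1.99 (1.77 to 2.23), against 0.947 in cluster 1. Without the richest nucleus of each library it was 1.87. Acta1 was at 1.96 (1.42 to 2.69), Lmod3, a nucleator of thin filaments, at 2.02 (1.38 to 2.95), Xirp2 at 2.0, Neb, the thin filament ruler nebulin, at 1.62, Tnni2 at 1.70 and Myom3 at 1.55. These 7 calls held without the richest nucleus. Over promoters alone, with fewer fragments, 4 of the 10 sarcomere stage calls, 1 of the 3 coupling calls, 1 of the 2 junction calls, 1 of the 7 fusion and membrane calls, 1 of the 4 metabolic calls, 1 of the 2 calls of myogenic factors and 0 of the 3 progenitor calls remained. In the other direction, Myl2 was at 0.344 (0.204 to 0.551), Mybpc2 at 0.460 (0.290 to 0.702) and Myot at 0.467 (0.201 to 0.964). For Myl2, 58 of 142 fragments at E13.5 came from 1 nucleus, and for Mybpc2 53 of 138, and the ratios without it were 0.505 and 0.645, the latter no longer called. Myot, on 47 and 9 fragments, was at 0.448 without its richest nucleus and also lost its call.

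For calcium handling, Ryr1 was at 1.83 (1.64 to 2.05), Atp2a1 at 1.82 (1.44 to 2.28) and Casq2, a calcium store protein, at 1.65. Cluster 1 moved the other way at Atp2a1, with 0.446 (0.322 to 0.609), and was at 0.865 for Ryr1. At the junction, Rapsn was at 2.21 (1.60 to 3.04), with 31 of its 77 fragments at E15.5 in 1 nucleus and 1.51 without it. Chrna1 was at 1.5 with and 1.12 without its richest nucleus. Of the membrane genes, Sgcb was at 2.70 (1.91 to 3.84), Cav3 at 1.82, Dtna at 1.75 and Dysf at 1.5. Mymk (1.86) rests on 1 nucleus that held 41 of its 107 fragments at E15.5, and without it the ratio was 1.3. The metabolic genes were Cox6a2 (2.28, on 15 and 14 fragments), Ckmt2 (2.26), Fbp2 (2.13) and Ampd1 (1.79). Cox6a2 lost its call without its richest nucleus, at 1.87.

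Most regulators were not called. Myod1 was at 1.13 (0.807 to 1.56), Myog at 1.06 (0.797 to 1.40), Pax7 at 0.902 (0.80 to 1.02) and Heyl at 0.999 (0.812 to 1.22), and none of these passed the rule. Myf5 was at 1.70 (1.13 to 2.54), which fell to 1.54 and out of the rule without its richest nucleus, and Msc at 1.84 (1.21 to 2.78), with cluster 1 at 2.15. Of the other progenitor genes Itga7, a laminin receptor of fibres and satellite cells, was at 2.16 and Sdc4 at 1.74. Fst was at 0.420 (0.230 to 0.718). Isl1 was at 0.597, and at 0.623 and not called without its richest nucleus. Among all genes, the 5 highest ratios were those of Tmem173 (6.78), Armc12 (5.53), 1700025F22Rik (5.34), AC115631.1 (4.70) and Serpinb13 (4.53). In these, 1 nucleus held 31 of 50, 17 of 34, 18 of 35, 22 of 27 and 21 of 26 of the E15.5 fragments, and without it the ratios were 3.16, 4.24, 3.53, 1.04 and 1.56, the last 2 no longer called. The lowest were Epcam (0.0387) and the Y-linked Ddx3y, Kdm5d, Uty and Zfy1, which had 41, 60, 119 and 55 fragments at E13.5 and none at E15.5. In the other clusters the ratios of these Y-linked genes, in the same order, were 0, 0.0130, 0.000992 and 0, so their fall was not particular to cluster 10. All cluster 10 nuclei at E15.5 together had 107 chromosome Y fragments in 1000000 against 355 at E13.5, and the other clusters 127 against 330, so stage and embryo sex cannot be told apart.

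**Figure D3:**
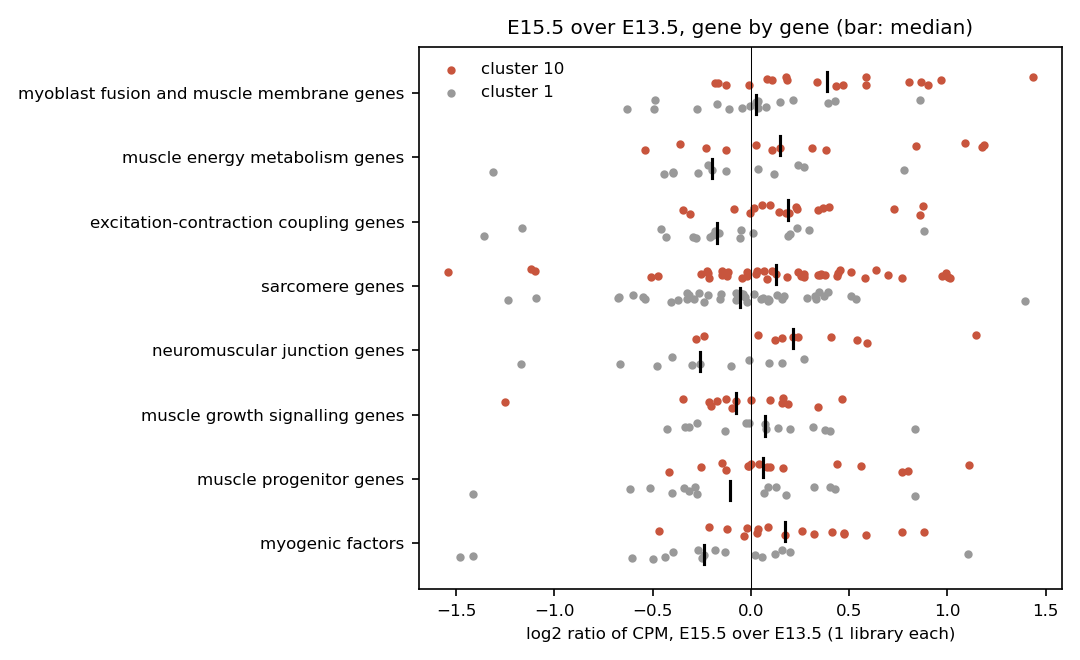
Log2 ratio of CPM at E15.5 over E13.5 for each gene of 8 lists, in cluster 10 (red) and in cluster 1 (grey), with 1 library per stage; bars are medians of the genes drawn. Genes with no fragment in a library are not drawn. For the fusion and membrane genes the median ratio is 1.31 in cluster 10 and 1.02 in cluster 1, and for the sarcomere genes 1.09 and 0.963.

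Nuclei of cluster 10 differed from each other in how far the 2 programmes were open. At E13.5, fragments in the 43 sarcomere genes gave 1718 to 6037 CPM per nucleus with a median of 3138, and at E15.5 1678 to 6499 with a median of 3711. The medians of cluster 1 were 1772 and 1808 CPM. Of the nuclei of the other clusters with at least 10000 fragments, 19 of 737 at E13.5 and 0 of 518 at E15.5 reached the cluster 10 median. That cut does not match their depth to that of cluster 10. Fragments in the progenitor genes ranged from 286 to 2516 CPM with a median of 1384 at E13.5 and from 474 to 3041 with a median of 1330 at E15.5. The medians of cluster 1 were 755 and 718 CPM. For the progenitor genes, 26 of the same 737 and 9 of the same 518 nuclei of the other clusters reached the cluster 10 median.

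Within E15.5, nuclei with more progenitor accessibility by CPM had less sarcomere accessibility, with a Spearman rank correlation of -0.67 over 24 nuclei. At E13.5 the correlation was -0.21 over 49 nuclei. Over promoters alone the values were -0.50 and -0.17. After thinning to 10000 fragments, which left medians of 9 and 7.5 progenitor fragments per nucleus at E13.5 and E15.5, they were 0.0947 and -0.0435. The thinned scores are out of all unique fragments and the CPM scores out of gene fragments, so depth and scaling changed together. Which of them changed the values was not tested. The nuclei of a library share it and its embryos, and both scores share their total, so these correlations are descriptions only.

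**Figure D4:**
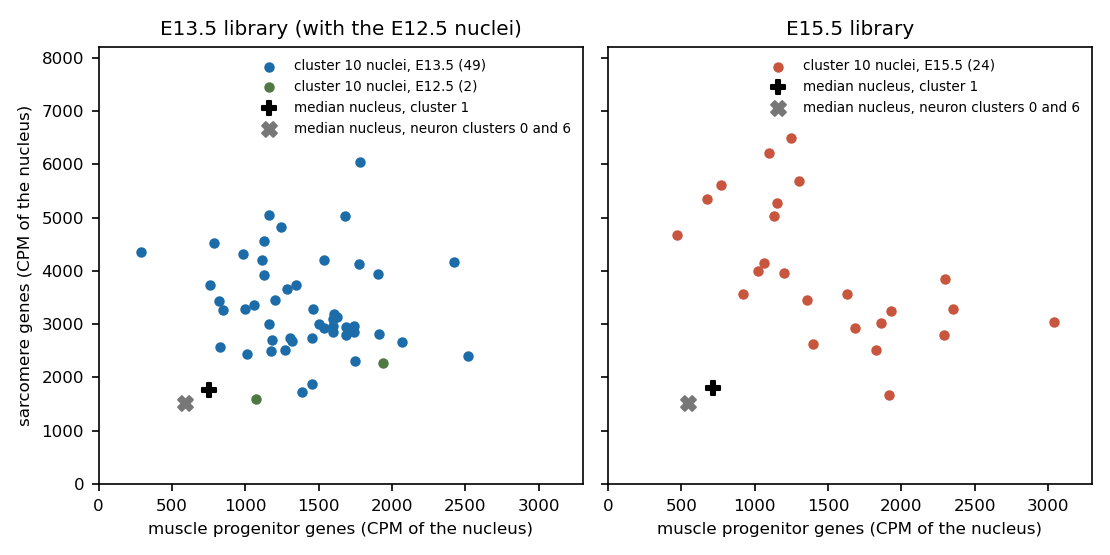
Accessibility of muscle progenitor genes (horizontal) and sarcomere genes (vertical) in each cluster 10 nucleus, in CPM of that nucleus, for E13.5 with the 2 E12.5 nuclei (left) and E15.5 (right). The plus and the cross mark the median nucleus of cluster 1 and of the neuron-rich clusters 0 and 6. The E15.5 nuclei run from high sarcomere and low progenitor values to the reverse (rank correlation -0.67), and 23 of 24 lie above the cluster 1 median of 1808 CPM for sarcomere genes.

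Distal regions were taken as bins of 500 bp that lay more than 1 kb from every annotated TSS. A bin was chosen when cluster 10 had at least 8 fragments at E13.5 and a level at least 4 times that of the other clusters, here scaled to 1000000 unique fragments of any kind. Of 39023 bins with that many fragments, 15448 (39.6%) were chosen and merged into 12529 regions. The lowest ratio chosen was 4.02 and the highest left out 3.99. The E15.5 fragments took no part in the choice of bins but helped to make the clusters, so E15.5 is no independent check. There 68.1% of the chosen bins were again at least 1.5 times and 42.4% at least 4 times the other clusters. Of all 39023 bins, which include the chosen ones and were filtered on cluster 10 fragments, 49.8% and 22.0% were. Of the 15448 chosen bins, 12209 had a cluster 10 fragment at E15.5. The summed level was 6.72 times the other clusters at E13.5 and 4.52 times at E15.5. Of 18151 bins chosen in the same way for cluster 1, 57 were shared. Cluster 1 is part of the other clusters, so a small overlap was largely fixed by the choice. The 2 nuclei at E12.5 had 3194 fragments in the chosen bins, 3.05 times the other clusters (2.94 to 3.16), against 1.73 for all 39023 bins and 1.21 for the bins of cluster 1. Their own fragments helped to place them in cluster 10, and the value was not split between them.

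Most muscle genes had such a region nearby. Within 100 kb of the 6 markers there were 79 regions, 23 of them at Pax7, 18 each at Myod1 and Myog, 15 at Des, 3 at Myf5 and 2 at Ttn. Of 43 sarcomere genes, 39 (90.7%) had a region within 100 kb, of 17 myogenic factors 16 (94.1%), and of 16 progenitor genes 14 (87.5%), against 54.6% of all genes. The metabolic list, with 8 of 13 (61.5%), was the closest to that background.

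The 6 regions with the most cluster 10 fragments near a marker are given next, and their E13.5 values took part in the choice. The number of nuclei behind these fragments was not counted, and no bin or region was recomputed without its richest nucleus. Of these 6, the highest ratio was that of chr7:46314501-46317500, intergenic and 60.5 kb upstream of Myod1. It had 167 and 102 fragments in cluster 10 at E13.5 and E15.5 against 12 and 6 in cluster 1, and stood at 23.2-fold (17.8 to 30.5) and 38.0-fold (26.7 to 54.7) the other clusters. A second intergenic region, chr7:46352001-46354000, lay 23.5 kb upstream of Myod1. It had 86 and 45 fragments and ratios of 14.7 (10.6 to 20.5) and 36.5 (21.5 to 63.9). The Myod1 gene window was at 6.74 and 7.36. It was scaled by gene fragments and not picked by this rule, so its ratios are not directly comparable with those of the regions.

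At Myog, chr1:134245001-134246000, intergenic and 44.5 kb upstream, had 83 and 52 fragments and ratios of 12.9 (9.35 to 17.8) and 15.7 (10.6 to 23.3). The region chr1:134194501-134197000 overlapped an exon of Mybph and had 26.8 and 31.8 CPM of all fragments, at 8.60-fold (6.84 to 10.8) and 10.7-fold (7.71 to 14.6). At Pax7, chr4:139696001-139700000, intergenic and 136 kb from the gene's TSS beyond its 3′ end, had 188 and 45 fragments, at 12.1-fold (9.83 to 14.9) and 12.4-fold (8.26 to 18.4). An intron of Pax7, chr4:139770501-139772500, had 99 and 33 fragments, at 14.6-fold (10.8 to 19.9) and 11.8-fold (7.36 to 18.7). Over its whole window Pax7 was at 2.55-fold and 2.49-fold.

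Sequence content was described over the bins. The E-box CAGCTG, searched on both strands, was in 55.9% (55.1 to 56.7) of the bins chosen for cluster 10 and in 28.1% (27.5 to 28.8) of those chosen for cluster 1. It was in 35.9% of 110680 distal bins with at least 8 fragments at E13.5 in cluster 10 or cluster 1. These include the bins chosen for either cluster. There were 0.869 sites per bin in the first, 0.333 in the second and 0.470 in the third. The GC content was 48.99%, 45.4% and 49.6%, so the bins of cluster 10 and all bins were alike in that. The looser E-box CANNTG, which includes CAGCTG, was in 97.4%, 95.1% and 94.8%. The site of the Mef2 factors, in its strict form, was in 1.13%, 0.997% and 0.861%. The TEAD site GGAATG was in 30.1%, 31.7% and 28.4%, the RUNX site TGTGGT in 34.4%, 36.0% and 34.5%, the AP-1 site TGANTCA in 14.2%, 16.5% and 14.4%, and the GATA site AGATAA in 18.7%, 24.5% and 19.6%. Of these 7 motifs, CAGCTG had the widest gap in share between the bins of cluster 10 and cluster 1.

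**Figure D5:**
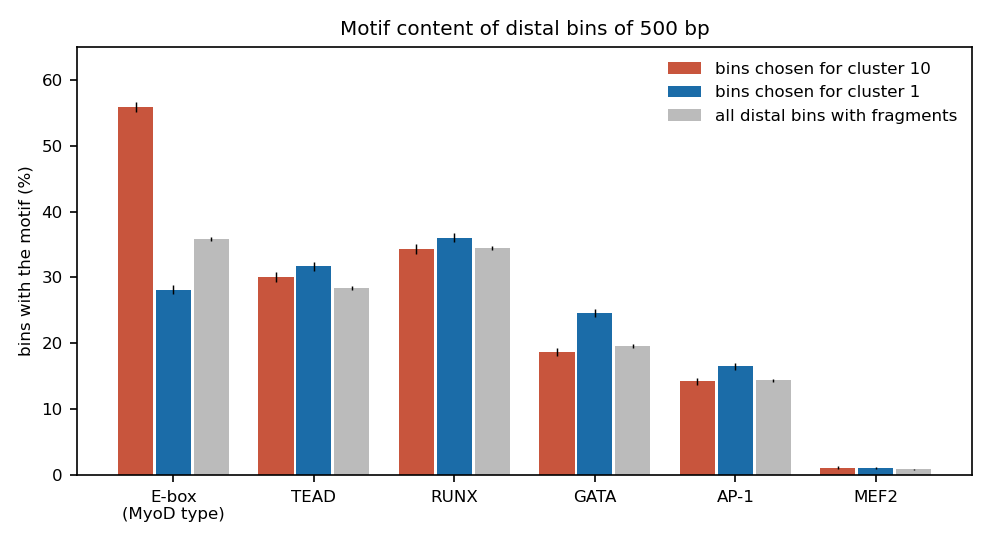
Share of distal bins of 500 bp (percent) that hold each of 6 motifs, for bins chosen for cluster 10 (red) and bins chosen for cluster 1 (blue). Grey is all distal bins with at least 8 fragments at E13.5 in either cluster, the chosen bins included. Bars show exact 95% binomial intervals. The muscle type of E-box is in 55.9% of the cluster 10 bins and 28.1% of the cluster 1 bins, and the next widest gap is that of the GATA site, at 18.7% and 24.5%.

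The sequences printed above show single cases. The Myog upstream region held 2 CAGCTG sites in the 300 bases shown. The stretch from the region that overlaps a Mybph exon and the Myod1 upstream region held 1 each. The other 3 of the 6 regions held none in the 300 bases around their median fragment midpoint. Of the marker promoters in the RefSeq table, that of Des held 1 CAGCTG and that of Ttn 1 match to the strict Mef2 form. Those of Myog, Myf5 and Pax7 held neither string. The Myog promoter holds ctatatttat, which differs from the strict form at its last base, and looser forms were not searched. Of all 32851 promoters in the table, 16.3% held CAGCTG. It was in 11 of the 33 sarcomere promoters that could be matched, in 8 of 10 metabolic, 4 of 7 junction and 4 of 11 coupling promoters. It was in 2 of 10 promoters of myogenic factors, 2 of 12 of signalling genes, 1 of 11 of fusion and membrane genes and 0 of 10 of progenitor genes. A match is a run of letters and not a measured binding site.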

How the data were processed

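snATAC-seq libraries of E12.5, E13.5 and E15.5 embryos were analysed from the deposited fragment files. The authors aligned reads with Cell Ranger ATAC 2.0.0 to mm10. The submitters' processing notes also name Signac 1.6.0 and Seurat 4.1.0, and the settings of the clustering are not given in the sources used here. The fragment files list unique fragments, already shifted to the Tn5 cut, with a deposited count of supporting read pairs. The deposited cell table gives library, cluster and counts per nucleus, and 19 of its columns were not used.

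Of 21938 protein-coding genes in GENCODE vM21, 21602 were counted. Pcdh and Ugt clusters, duplicate symbols and genes over 500 kb were left out, the last including Lama2, Ryr3, Sgcd and Syt1 of the lists. Each unique fragment counted once, and without strand, overlapping genes share fragments. Counts were scaled by all gene fragments of the cluster and library. Promoter counts were scaled by gene fragments for the marker ratios, and by promoter fragments where calls and correlations were recomputed over promoters. Shares carry Clopper-Pearson and levels Poisson intervals. TMM factors came from edgeR 4.0.16 in R 4.3.3, and the rest from Python 3.11.15 with NumPy 2.4.6 and SciPy 1.17.1. The call rules were tested on simulated gene counts, which had no runs of fragments and no variation among nuclei.

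Nuclei were grouped by the deposited library and cluster number, and no test was run. The lists were described by counts and medians. Results of some list genes and of a motif are not reported here. Members and lists were chosen with earlier results of these data known. Named genes were those of the lists and the 10 highest over the other clusters (the 10 lowest tie at 0 and are not named). The 5 highest over cluster 1, Rnase10 and Esp6 of the 5 lowest there, and the 5 of each between stages were named too. Alternatives were the promoter window, other scalings, means over nuclei, linked barcodes, depth minimums, fold 2 and, added after seeing the data, omission of the nucleus richest in a gene and autosomes only.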

Additional observations from a re-analysis of the deposited data

Results flagged for a closer look

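In 9 of 149 genes of the muscle lists (6.04%), 8 of them given here, cluster 10 and mesenchyme cluster 1 lay on opposite sides of 1 in the ratio of E15.5 over E13.5, with both counting intervals apart from 1 and the cluster 10 ratio called. Of all 17244 genes, 410 (2.38%) did so. The difference between the clusters was not tested in any of them, and each stage is 1 library. Myf5 was at 1.70 in cluster 10 and 0.375 in cluster 1, Lmod3 at 2.02 and 0.424, and Atp2a1 at 1.82 and 0.446. Myom3 was at 1.55 and 0.660, Ryr1 at 1.83 and 0.865, and Dysf at 1.5 and 0.709. Mymk was at 1.86 and 0.646, and Dtna at 1.75 and 0.827. Without their richest nucleus the cluster 10 values of Mymk and Myf5 were 1.3 and 1.54 and no longer called.

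In 3 of the 149 list genes (2.01%) the ratio of cluster 10 over cluster 1 lay on opposite sides of 1 in the 2 libraries, with both intervals apart from 1, and this too was not tested. Of all 19147 genes, 527 (2.75%) did so, so the lists did not stand above the background here. Dysf, a membrane repair gene, went from 0.595 at E13.5 to 1.26 at E15.5, Dtna, a gene of the dystrophin complex, from 0.782 to 1.65, and Ckmt2, a mitochondrial creatine kinase, from 0.648 to 1.92.

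The E12.5 library took no part in the calls, but its fragments helped to make the clusters, so its values are no independent check. Its 2 cluster 10 nuclei were flagged because their level in the distal bins chosen at E13.5 was 3.05 times that of the other clusters at E12.5, above the 1.73 of all distal bins with the minimum of fragments. The deeper nucleus, which also held the Epcam, Trp63 and Col2a1 fragments, gave 115962 of their 161307 fragments. The value was not split by nucleus.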

How the results depend on the processing

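Of the 93 named genes called against the other clusters, all 93 stayed called under scaling by all unique fragments, under TMM scaling, with 1 barcode per linked group and with nuclei of at least 10000 fragments, and 84 over promoters alone. At a fold of 2, 65 stayed, and without the nucleus richest in the gene 74 of 89 stayed, 14 were lost and 1 reversed. Of the named genes called against cluster 1, 74 of 95 stayed over promoters, 60 of 97 at a fold of 2 and 70 of 88 without the richest nucleus. Of the 40 stage calls that could be recomputed, all 40 stayed under those 4 settings, 20 at a fold of 2, 26 of the 34 higher ones without the richest nucleus, and 12 of 39 over promoters, where counts are smaller. At a fold of 2, which calls fewer genes by construction, 427 genes were higher and 305 lower than in cluster 1, 263 and 560 against the other clusters, and 390 and 738 between stages. Over promoters, 724 genes were called higher and 844 lower between stages, of which 327 and 428 were among the 1350 and 1806 called over the whole window. Of the 855 genes higher and 1591 lower than in the other clusters, 475 and 658 stayed called over promoters. Of the 1222 and 1228 against cluster 1, 518 and 410 stayed. Without the nucleus richest in each gene, a choice made after seeing the data that favours lower ratios of cluster 10 over other clusters, 579 genes were higher than cluster 1, 426 than the other clusters and 791 at E15.5. The rank correlation of progenitor and sarcomere accessibility was 0.0947 at E13.5 and -0.0435 at E15.5 after thinning, and -0.50 at E15.5 over promoters. At a fold of 2 the distal bins numbered 28732, and with a minimum of 12 fragments 6016. The share of fragments at TSSs at E12.5 was 8.30% after thinning. Counts over promoters were scaled here by promoter fragments, so window and scaling changed together. Reversed over promoters were Mef2d over cluster 1 (0.78), Myl3 over cluster 1 (1.32) and Myh4, at 0 in a library against either comparison. Spint5 fell to 0 against the other clusters and between stages without its richest nucleus. The cause of these changes was not tested. No paired analysis was possible because each stage has 1 library. Depth limits E12.5, with 2 nuclei, and genes with few fragments, where intervals span several-fold.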
